A study of Mus musculus with 2 samples.

Results

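Laminins are heterotrimers of an alpha, a beta and a gamma chain that epithelial, endothelial and stromal cells lay down in basement membranes. Lama3 and Lamb3 encode the α3 and β3 chains of the laminin that anchors epithelial cells through integrin α6β4, which is encoded by Itga6 and Itgb4 and forms the core of the hemidesmosome. Laminins with the α5 chain of Lama5 or with the β1 and γ1 chains of Lamb1 and Lamc1 bind in addition to dystroglycan, the product of Dag1, which reaches the cytoskeleton through the dystrophin complex. The 8 genes described here were chosen by name as the measured rows of these laminin chains, of dystroglycan and of the integrin α6 and β4 subunits, and they are 8 of the 32285 genes listed. All 8 were found in both libraries, and their levels were read in epithelial states, in stromal cells and in immune cells set by marker genes.

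The cells came from colorectal tumours of mice given AOM/DSS, that is the carcinogen azoxymethane and then dextran sulphate sodium, which injures the colon epithelium. One group was WT and the other carried a whole-body STK25 knockout (labelled wKO), and the sources used here do not give the age, sex or strain of the mice. Tumours were pooled within each group and gave 1 droplet-based 3′ library each, so the comparison of libraries has no replicate, no test was made, and genotype and library cannot be told apart. The design text mentions a sort on an mCherry signal, for which the labels give no gate. Stk25 itself stood at 167 CPM in the epithelial cells of the library labelled WT and at 156 CPM in those of the library labelled STK25 knockout, so the transcript did not separate the labels, and directions below are those between labelled libraries.

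Values are given in the order library labelled WT, then library labelled STK25 knockout. CPM is the UMIs (unique transcript counts) of a gene per 1000000 UMIs of a cell group, parentheses hold 95% intervals that cover counting error only, and a log2 ratio above 0 means a higher level in the second library. After filtering, 12270 and 13883 cells remained with medians of 1383 and 2091 UMIs, and 221 kept barcodes occurred in both libraries (1.80% and 1.59% of cells). The epithelial class held 2691 and 4938 cells (median 3984 and 4354 UMIs) and the fibroblast class 671 and 801 cells (2197 and 2504 UMIs). Epithelial RNA was found in nearly every droplet. At least 1 UMI of 12 epithelial marker genes was present in 97.6% and 99.4% of fibroblast-like barcodes and in 96.9% and 99.7% of B-like barcodes.

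Between the epithelial and the fibroblast class the 8 genes fell into an epithelial set and a stromal set, names that refer to this contrast only. Lama5 of the epithelial set, at 48.0 and 36.7 CPM in epithelial cells, was higher in other cells. It was at 116 and 88.4 CPM in blood endothelial cells. In pericytes or smooth muscle it was at 111 (73.9 to 161) and 70.1 (49.4 to 96.6) CPM. Lama3, Lamb3, Lama5, Itga6 and Itgb4 were higher in the epithelial than in the fibroblast class in both libraries, with intervals that did not overlap, whereas Lamb1 and Lamc1 were far higher in fibroblasts and Dag1 was moderately higher there. Lamb1, the β1 chain, showed the widest contrast. It was at 2.20 (1.64 to 2.91) and 2.22 (1.80 to 2.69) CPM in epithelial cells and at 287 (263 to 312) and 281 (261 to 302) CPM in fibroblasts. Lamc1, the γ1 chain that pairs with β1, was at 23.9 (22.0 to 26.0) and 19.0 (17.7 to 20.3) CPM in epithelial cells and at 397 (369 to 426) and 428 (403 to 453) CPM in fibroblasts. Dag1 was at 96.4 (92.4 to 101) and 90.2 (87.4 to 93.0) CPM in epithelial cells and at 133 (117 to 151) and 134 (121 to 149) CPM in fibroblasts, the narrowest contrast of the 8 genes. The plot of levels by cell class shows both sets side by side.

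**Figure D1:**
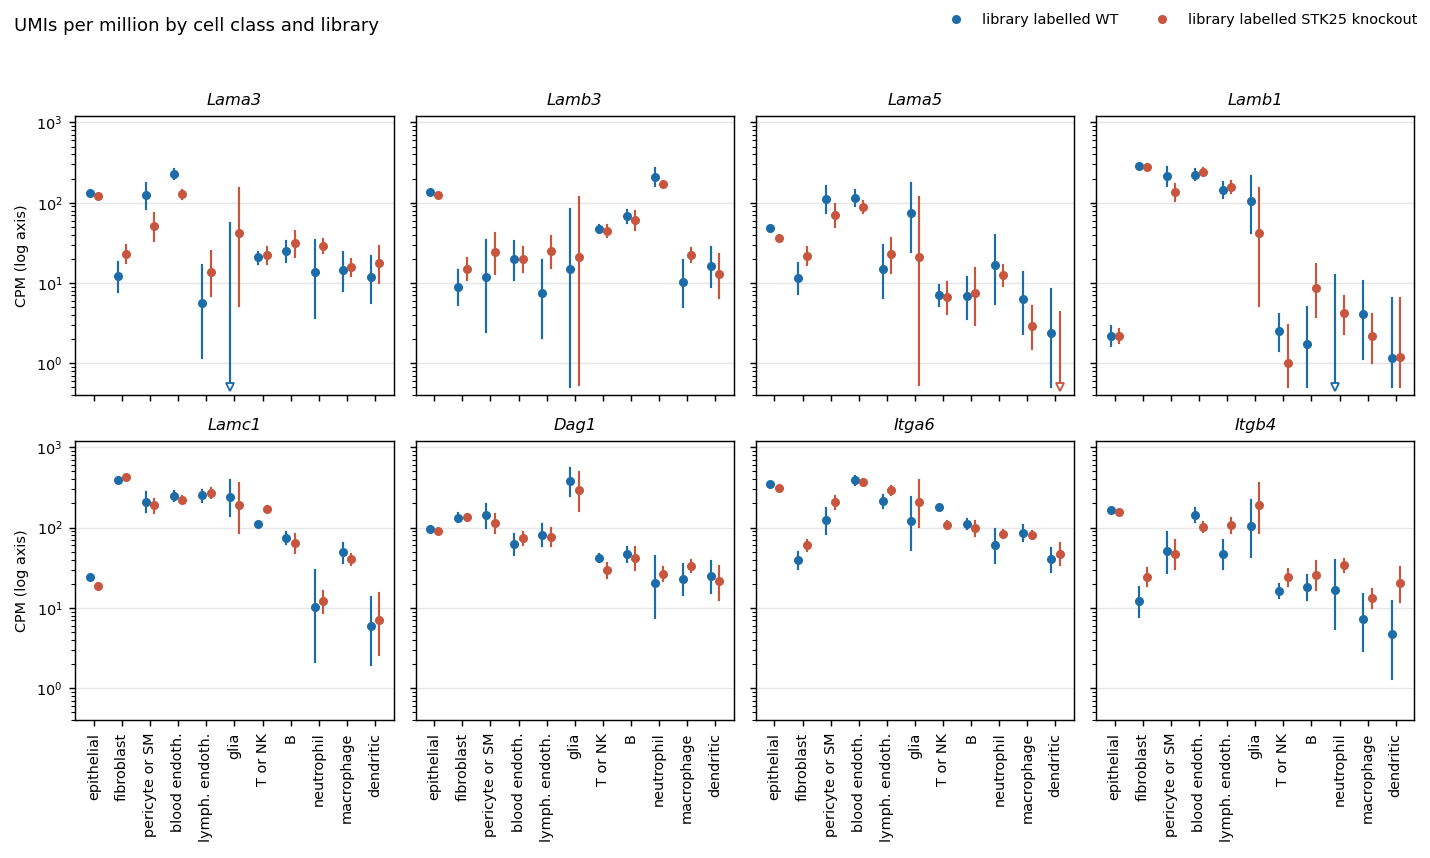
Level of each of the 8 genes (CPM, log axis) in the cell classes of each library, with 95% counting intervals; values under 0.5 CPM are drawn at 0.5 and open triangles mark 0 UMIs. Lamb1 is at 2.20 and 2.22 CPM in epithelial cells and at 287 and 281 CPM in fibroblasts, whereas Itga6 is at 348 and 315 CPM in epithelial and at 387 and 368 CPM in blood endothelial cells.

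Among the epithelial set, Itga6 was detected most widely. A UMI of Itga6 was found in 61.2% and 66.2% of epithelial cells, and its level was 348 (341 to 356) and 315 (309 to 320) CPM. Itgb4, its partner subunit, was at 165 (160 to 171) and 157 (154 to 161) CPM, with a UMI in 44.4% and 49.1% of cells. The genes of the α3 and β3 chains stood near each other, Lama3 at 133 (128 to 138) and 121 (118 to 124) CPM and Lamb3 at 134 (130 to 139) and 124 (121 to 127) CPM. Lama5 was at 48.0 (45.2 to 50.9) and 36.7 (35.0 to 38.5) CPM. With each cell thinned to 1000 UMIs, a UMI of Lama3 remained in 11.9% and 12.6% of epithelial cells, against 2.14% and 2.93% of B-like cells, and 186 and 174 epithelial cells and 867 and 209 B-like cells were too shallow to enter.

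Blood endothelial cells expressed members of both sets. Itga6 there, at 387 (343 to 436) and 368 (340 to 399) CPM, was at or above its epithelial level. Lama3 was at 229 (195 to 267) and 128 (111 to 146) CPM, 172% and 106% of its epithelial level, while the 12 epithelial markers in the same cells ranged from 3.94% to 18.8% and from 6.94% to 17.6% of theirs. Lamb3 did not follow Lama3 in these cells. It was at 19.8 (10.8 to 33.2) and 20.0 (13.8 to 28.1) CPM, 14.7% and 16.1% of the epithelial level, which is within the range of the epithelial markers. Reads from the 3′ end cannot tell Lama3 transcripts with a shared end apart, so which α3 form the endothelial counts represent is unknown. Lama5 was at 116 (92.2 to 144) and 88.4 (74.7 to 104) CPM, Lamb1 at 225 and 244 CPM and Lamc1 at 247 and 223 CPM, which are the chains of the vascular laminins.

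Neutrophils were the other cells with a high Lamb3 value, at 210 (161 to 269) and 170 (157 to 184) CPM, against 13.5 and 29.3 CPM for Lama3 in the same cells. Lamb3 reached 156% and 137% of its epithelial level there, and 67.6 and 60.5 CPM in B cells. The gene model of Lamb3 in the annotation used here (GENCODE, chromosome 1, 193207699 to 193343878, plus strand, GRCm38) encloses G0s2 (193272161 to 193273217) and Hsd11b1 (193221634 to 193264075) on the opposite strand. Both annotated Lamb3 starts described below (windows chr1:193301744-193302043 and chr1:193301993-193302292) lie past these genes. Transcripts from those starts would therefore not span G0s2 or Hsd11b1, whereas the longer gene model does. G0s2, a gene of lipolysis control that is abundant in neutrophils, was at 3471 and 6727 CPM in neutrophils and at 9.70 and 33.7 CPM in epithelial cells. The sources used here do not say whether counting used strand, and the part of reads from G0s2 in the neutrophil value of Lamb3 was not tested.

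RefSeq promoter sequences of the reference build (GRCm38.p6, 250 bases before to 50 after the start) were available for 4 of the 8 genes, and 1 start of each is shown so that the CG content of an epithelial laminin chain, of a stromal chain and of the broadly detected Dag1 can be compared. Capitals mark CG pairs. The Lamb3 window (chr1:193301744-193302043, plus strand) held 2 CG pairs, and 14.1% of all 32851 promoters held fewer. The Lama5 window (chr2:180225810-180226109, minus strand) held 24, the Lamb1 window (chr12:31265043-31265342, plus strand) 18 and the Dag1 window (chr9:108263909-108264208, minus strand) 30, against a median of 7 over all promoters (quartiles 3 and 20).
Lamb3: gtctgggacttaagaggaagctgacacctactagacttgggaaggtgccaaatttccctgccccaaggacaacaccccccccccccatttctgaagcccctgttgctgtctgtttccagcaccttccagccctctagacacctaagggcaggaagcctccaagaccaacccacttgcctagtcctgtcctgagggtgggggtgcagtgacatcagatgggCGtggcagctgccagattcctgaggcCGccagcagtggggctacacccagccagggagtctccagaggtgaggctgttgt
Lama5: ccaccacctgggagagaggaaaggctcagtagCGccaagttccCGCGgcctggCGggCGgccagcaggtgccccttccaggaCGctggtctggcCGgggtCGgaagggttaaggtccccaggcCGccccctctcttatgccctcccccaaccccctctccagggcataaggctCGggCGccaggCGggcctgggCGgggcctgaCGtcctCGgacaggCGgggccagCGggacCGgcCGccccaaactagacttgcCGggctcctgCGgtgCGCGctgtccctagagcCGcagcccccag
Lamb1: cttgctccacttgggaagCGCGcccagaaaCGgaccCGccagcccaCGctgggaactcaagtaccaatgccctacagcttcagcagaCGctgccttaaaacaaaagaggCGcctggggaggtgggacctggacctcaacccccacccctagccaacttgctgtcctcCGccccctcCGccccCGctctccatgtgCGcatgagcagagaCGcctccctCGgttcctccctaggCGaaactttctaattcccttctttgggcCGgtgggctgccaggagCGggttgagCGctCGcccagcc
Dag1: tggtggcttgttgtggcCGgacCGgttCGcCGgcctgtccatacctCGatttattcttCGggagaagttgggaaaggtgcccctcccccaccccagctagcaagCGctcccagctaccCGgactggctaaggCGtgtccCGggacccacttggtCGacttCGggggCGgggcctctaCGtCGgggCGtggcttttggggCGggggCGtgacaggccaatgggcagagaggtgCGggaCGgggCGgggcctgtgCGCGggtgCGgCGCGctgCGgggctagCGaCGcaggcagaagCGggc

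Of the 4 windows, that of the epithelial chain gene Lamb3 was the poorest in CG pairs and that of Dag1 the richest. A second annotated start held 5 CG pairs for Lamb3 and 47 for Dag1. No match to TGANTCA, a motif bound by AP-1, or to TATAAA was found on either strand of these windows. All promoters of this length held TGANTCA in 7.81% and TATAAA in 13.6% of cases. A match or its absence describes these letters only.

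Over the epithelial class as a whole, the libraries were close for all 8 genes. The log2 ratios ran from −0.38 for Lama5 (−0.50 to −0.27) to 0.01 for Lamb1 (−0.50 to 0.53). None of the 8 genes passed a log2 ratio of 0.5, against 22.6% of the 14722 genes with at least 50 UMIs. Lamc1 had the next largest difference, −0.33 (−0.49 to −0.18), and Itgb4 one of −0.07 (−0.13 to −0.01). The median over the 8 genes was −0.13, equal at this precision to the median over all genes. Lama3 (−0.14), Lamb3 (−0.12), Itga6 (−0.15) and Dag1 (−0.10) lay close to that median. Malat1, a nuclear RNA whose share follows the balance of nuclear and cytoplasmic RNA, was at −0.57 in the same cells, and its part in these ratios was not tested.

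Within the epithelium, the 8 genes were distributed by state. The stem-like state (Lgr5 and other crypt-base genes) held 565 and 1084 cells, the absorptive-like state 191 and 440, the goblet or deep secretory-like state 259 and 518, and an inflammatory-like state 499 and 674. A state set by Cftr, Htr4 and Esrrg held 462 and 828 cells and a state set by Krt36 and Klk15 157 and 473. A further 473 and 840 epithelial cells stayed unnamed. They came from a subcluster of 27 and 773 cells that macrophage genes led and a subcluster of 446 and 67 cells that lymphocyte genes led, and without them the count of members past 0.5 in the epithelial class was again 0.

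Lama3 and Lamb3 had their 2 highest levels in the inflammatory-like and absorptive-like states, although in the library labelled STK25 knockout the absorptive-like interval of Lamb3, 149 to 181 CPM, overlapped that of the Krt36 Klk15 state, 136 to 151 CPM. In the inflammatory-like state Lama3 was at 308 (292 to 325) and 382 (367 to 397) CPM, a log2 ratio of 0.31 (0.21 to 0.40). Lamb3 was at 269 (255 to 285) and 306 (293 to 320) CPM there. Itgb4 was at 278 (263 to 294) and 317 (303 to 331) CPM, the highest of the 6 large states in both libraries. It came next in the absorptive-like state of the library labelled WT, at 217 (189 to 248) CPM, with an interval that overlapped that of the Krt36 Klk15 state, 193 (179 to 208) CPM, and in the Krt36 Klk15 state of the other library, at 209 (200 to 218) CPM. The absorptive-like state had the highest Lama3 level in the library labelled WT, at 439 (399 to 483) CPM, but ranked second in the library labelled STK25 knockout, at 202 (185 to 219) CPM. At the other end, Lama3 in the goblet or deep secretory-like state was at 15.4 (9.66 to 23.3) and 14.3 (10.8 to 18.4) CPM, and Lamb3 at 40.7 and 40.3 CPM. The stem-like state was intermediate, with Lama3 at 65.6 (59.5 to 72.2) and 74.2 (69.2 to 79.5) CPM and Lamb3 at 82.1 (75.3 to 89.5) and 89.5 (84.0 to 95.3) CPM. The order of Lama3 from absorptive-like to goblet cells had no overlapping neighbours among the WT-labelled cells. Among the knockout-labelled cells only the Cftr Htr4 Esrrg and goblet states overlapped.

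**Figure D2:**
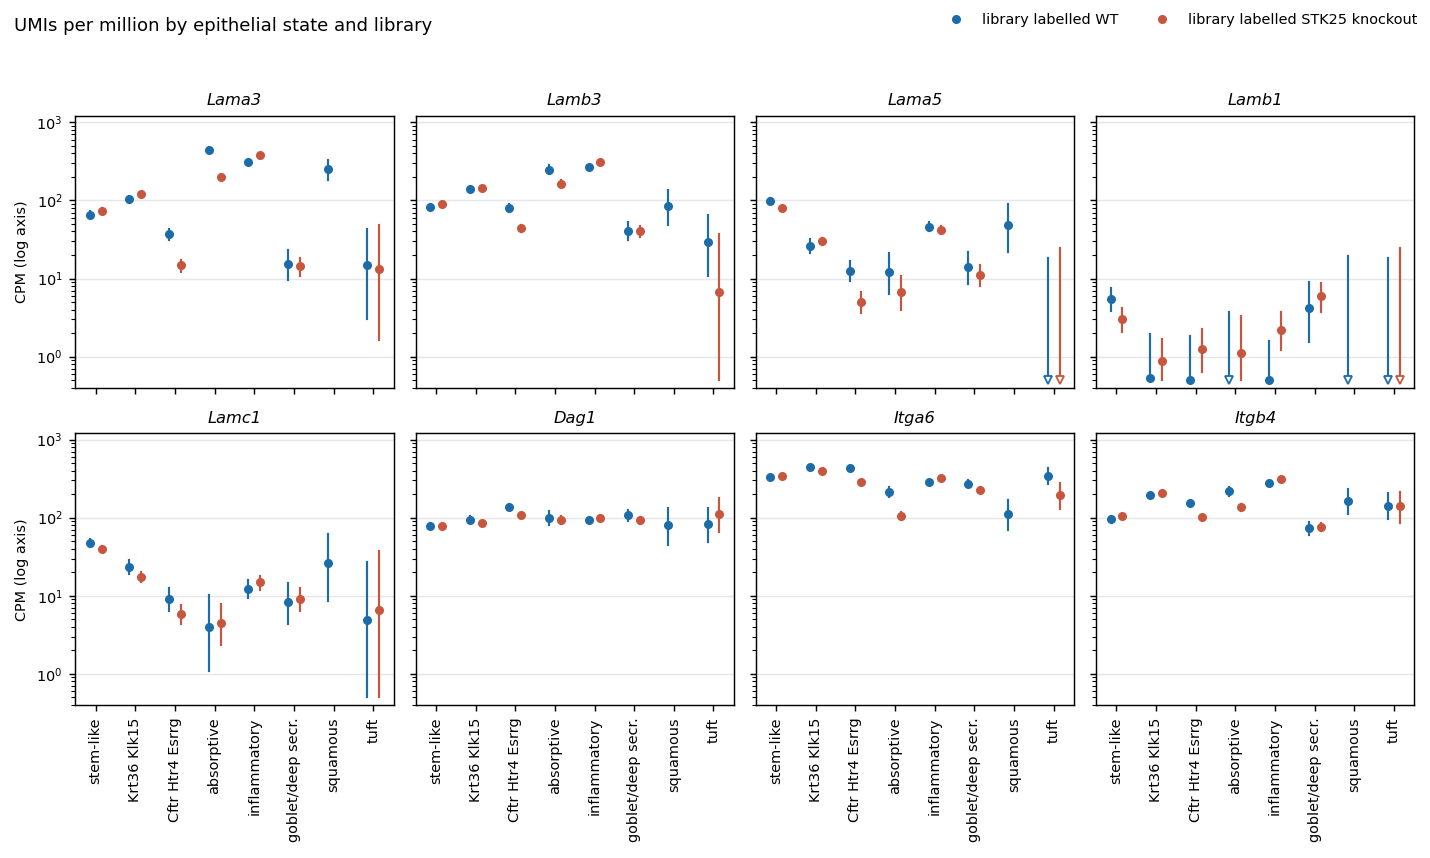
Level of the 8 genes (CPM, log axis) in the epithelial states of each library, with 95% counting intervals; values under 0.5 CPM are drawn at 0.5, open triangles mark 0 UMIs and groups under 25 cells in a library are left out. Lama3 spans from 15.4 to 439 CPM in the library labelled WT, whereas Dag1 stays between 77.3 and 138 CPM over the 6 large states.

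Joint detection in single cells was also counted for Lama3 with Lamb3 and for Itga6 with Itgb4. These shares were not set against those that the frequency of each gene alone would give. Whether the genes of a pair occur together beyond that was therefore not tested. With each cell thinned to 5000 UMIs, Lama3 and Lamb3 both had a UMI in 108 of 229 (47.2%, 40.6 to 53.8) inflammatory-like cells of the library labelled WT. In the library labelled STK25 knockout they did in 178 of 340 (52.4%, 46.9 to 57.8). In absorptive-like cells the shares were 24 of 51 (47.1%, 32.9 to 61.5) and 29 of 149 (19.5%, 13.4 to 26.7). The stem-like share was 9.64% and 10.4%, and the share in the Cftr Htr4 Esrrg state 5.17% and 1.63%. Itga6 and Itgb4 were both present in 54.6% and 55.6% of thinned inflammatory-like cells and in 43.1% and 18.1% of absorptive-like cells. Cells under 5000 UMIs could not enter, which left out 270 and 334 inflammatory-like and 140 and 291 absorptive-like cells. The absorptive-like state held a subcluster of 163 and 251 cells with a median of 2609.5 UMIs. Its other subcluster held 28 and 189 cells with a median of 5453 UMIs, and its Lama3 level was lower, as given below. The part of this make-up in the absorptive-like shares was not tested.

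Lama5 and Lamc1 had a different distribution from Lama3 and Lamb3, with their highest levels in the stem-like state. Lama5 was at 98.2 (90.7 to 106) and 80.4 (75.2 to 85.8) CPM in stem-like cells, and next in the inflammatory-like state at 46.3 (40.3 to 52.9) and 41.8 (36.9 to 47.2) CPM. It was at 12.1 (6.25 to 21.1) and 6.71 (3.98 to 10.6) CPM in absorptive-like cells, where Lama3 was high. Lamc1 was at 47.2 (42.1 to 52.9) and 39.6 (36.0 to 43.5) CPM in stem-like cells and at 4.03 (1.10 to 10.3) and 4.47 (2.31 to 7.82) CPM in absorptive-like cells. Lamb1 was at or below 5.90 CPM in each of the 6 large states. Its stem-like level was 5.46 (3.80 to 7.59) and 2.99 (2.06 to 4.20) CPM from 35 and 33 UMIs.

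Itga6 did not follow Itgb4 across states. Itga6 was highest in the Krt36 Klk15 state, at 444 (423 to 466) and 396 (383 to 408) CPM, followed in the library labelled WT by the Cftr Htr4 Esrrg state at 427 (407 to 448) CPM, whose interval overlapped, and in the other library by the stem-like state at 338 (327 to 349) CPM. Its lowest level was in the absorptive-like state, at 215 (187 to 245) and 106 (93.9 to 119) CPM, where Itgb4 was at 217 (189 to 248) and 137 (123 to 152) CPM. Over 12 and 13 named epithelial subclusters, the correlation (Pearson) of log levels was 0.83 and 0.98 between Lama3 and Lamb3, 0.88 and 0.88 between Lamb3 and Itgb4, 0.78 and 0.94 between Lama5 and Lamc1, and only 0.19 and 0.35 between Itga6 and Itgb4. The subclusters of a library share its depth and its free RNA, so these are descriptions. Over cell classes, in contrast, Itga6 and Itgb4 correlated at 0.86. Dag1 was the most even of the 8 genes, from 77.3 CPM in stem-like cells to 138 CPM in the Cftr Htr4 Esrrg state of the library labelled WT and from 77.9 to 109 CPM in the other library.

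The comparison of libraries within states gave no common direction. In the Cftr Htr4 Esrrg state, 6 of the 7 members with at least 50 UMIs were lower by at least 0.5 in the library labelled STK25 knockout, against 33.8% of 10990 genes, with a median of −0.63 against −0.24 over all genes. Lama3 there was at 37.1 (31.4 to 43.6) and 14.7 (12.2 to 17.4) CPM, a log2 ratio of −1.34 (−1.69 to −0.99). Lama5 was at 12.5 and 5.04 CPM (−1.31, −1.93 to −0.70), Lamb3 at 80.5 and 44.3 CPM (−0.86, −1.08 to −0.65) and Itga6 at 427 and 290 CPM (−0.56, −0.65 to −0.47). Dag1, at −0.34 (−0.49 to −0.18), was the member that did not pass 0.5. The state was made of 3 subclusters in unequal shares, with 248 and 255, 143 and 276, and 71 and 297 cells, and its Malat1 level was lower in the second library (log2 ratio −0.93). With the 3 subclusters weighted equally, 1 of the 7 members passed 0.5, Lama5 at −0.83.

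In the absorptive-like state, 4 of 5 members were lower by at least 0.5, against 24.1% of 6976 genes, with a median of −0.66 against −0.13. Lama3 had a log2 ratio of −1.12 (−1.31 to −0.94), Itga6 one of −1.02 (−1.28 to −0.76), Itgb4 one of −0.66 (−0.91 to −0.41) and Lamb3 one of −0.59 (−0.82 to −0.36). Dag1, at 99.7 and 93.2 CPM, had one of −0.10 (−0.44 to 0.25). Weighted equally over its 2 subclusters, which held 163 and 251 and 28 and 189 cells, the state had 2 members past 0.5, Lama3 at −0.61 and Itga6 at −0.86. In the larger subcluster, led by Tgm3 and Car4, Lama3 was at 638 (578 to 704) and 382 (344 to 423) CPM, a log2 ratio of −0.74 (−0.95 to −0.53). In the smaller one, led by Car1 and Aqp8, it was at 91.4 (62.9 to 128) and 96.8 (82.5 to 113) CPM, a difference within counting error. Malat1 differed in this state as well (log2 ratio −0.72), and its part in these ratios was not tested.

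In the stem-like state 1 of 8 members passed 0.5, Lamb1 at −0.87 (−1.60 to −0.14), against 13% of 12261 genes in either direction. None of 7 passed in the inflammatory-like state (25.9% of genes), none of 7 in the Krt36 Klk15 state (18.5%) and none of 6 in the goblet or deep secretory-like state (34.4%). The inflammatory-like state again held unlike subclusters. In the subcluster of 305 and 326 cells with a median of 2984 UMIs, Lama3 was at 487 (449 to 529) and 725 (676 to 775) CPM, a log2 ratio of 0.57 (0.42 to 0.73), and Lamb3 at 262 (234 to 293) and 404 (369 to 443) CPM, one of 0.63 (0.42 to 0.84). In the subcluster of 194 and 348 cells with a median of 12928.5 UMIs, Lama3 was at 245 (228 to 262) and 306 (291 to 321) CPM, a log2 ratio of 0.32 (0.20 to 0.45), and Lamb3 at 272 and 285 CPM. Weighted equally, these gave 1 member past 0.5, Lamc1 at 0.56.

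**Figure D3:**
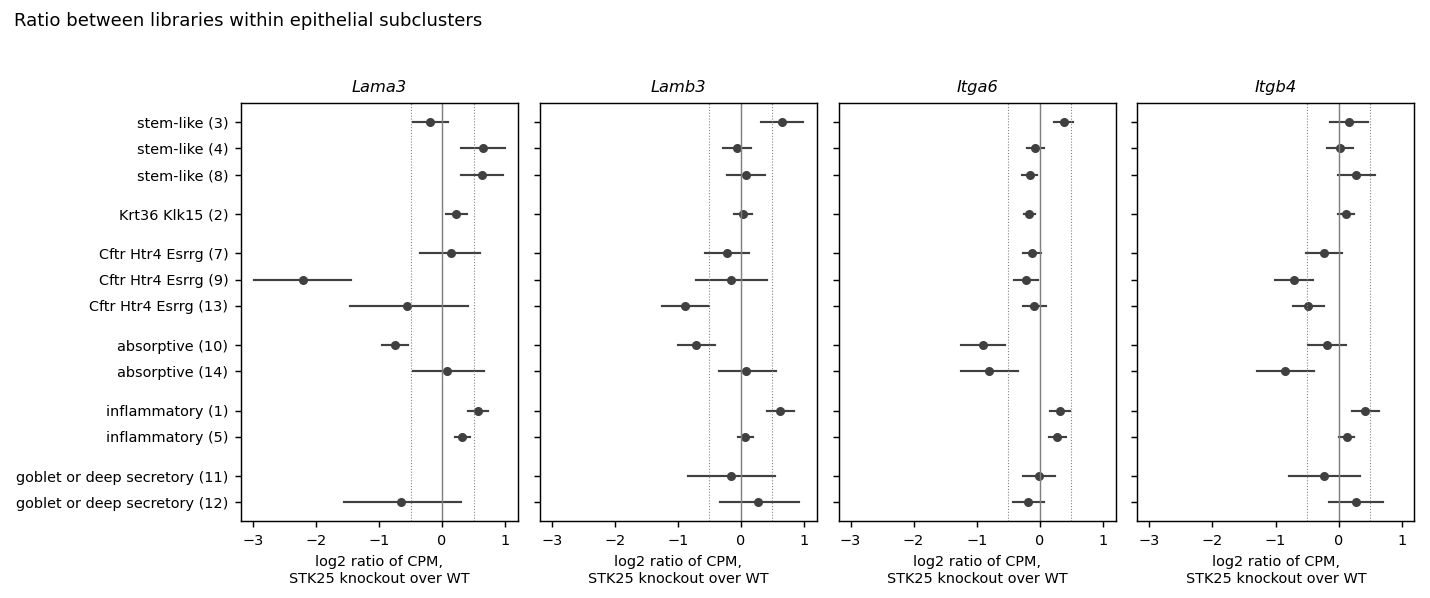
Log2 ratio of the library labelled STK25 knockout over that labelled WT for Lama3, Lamb3, Itga6 and Itgb4 in each epithelial subcluster with at least 50 UMIs, with 95% counting intervals and dotted lines at −0.5 and 0.5. Lama3 runs from −2.20 in a subcluster of the Cftr Htr4 Esrrg state to 0.65 in a stem-like subcluster.

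In the smaller epithelial states the counts were low. The squamous-like cells, 46 and 8, had Lama3 at 249 (183 to 332) and 84.6 (31.1 to 184) CPM from 47 and 6 UMIs. Tuft-like cells (32 and 41) had Itga6 at 344 (268 to 434) and 193 (129 to 277) CPM and Itgb4 at 142 and 140 CPM, with 3 and 2 UMIs of Lama3 and none of Lama5, which allows up to 18.1 and 24.5 CPM. Enteroendocrine-like cells (7 and 32) had 0 and 5 UMIs of Lama3.

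In the fibroblast class 5 of the 8 genes were higher by at least 0.5 in the library labelled STK25 knockout, against 11.9% of 9640 genes, with a median of 0.68 against 0.02 over all genes. These were the 5 genes of the epithelial set. Itgb4 was at 12.2 (7.76 to 18.4) and 24.6 (19.0 to 31.3) CPM, a log2 ratio of 1.01 (0.30 to 1.76). Lama3 was at 12.2 (7.76 to 18.4) and 23.1 (17.6 to 29.6) CPM, one of 0.91 (0.20 to 1.67), and Itga6 at 39.4 (30.9 to 49.4) and 60.5 (51.5 to 70.6) CPM, one of 0.62 (0.21 to 1.04). The Lamb3 ratio of 0.74 (−0.11 to 1.65), from 17 and 40 UMIs, was within counting error. For the stromal set no difference was detectable at this depth, with log2 ratios of −0.03 (−0.19 to 0.13) for Lamb1, 0.11 (−0.03 to 0.24) for Lamc1 and 0.01 (−0.22 to 0.25) for Dag1.

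The epithelial markers moved the same way in these barcodes. In the library labelled STK25 knockout all 12 were higher in the fibroblast class, and none was at 0, with a summed level of 1748 and 3034 CPM and a log2 ratio of 0.79. Each marker stood at 5.56% to 13.4% of its own epithelial level in the WT-labelled cells and at 7.38% to 23.3% in the knockout-labelled cells (medians 10.4% and 16.1%). Lama3 stood at 9.20% and 19.1%, Lamb3 at 6.74% and 12.2%, Itga6 at 11.3% and 19.2% and Itgb4 at 7.40% and 15.6%, all within those ranges. Levels within those ranges were not taken as expression in fibroblasts, and the part of free epithelial RNA in them was not tested. Lama5, at 24.4% (15.3 to 37.0) and 59.7% (45.3 to 77.2), lay above the ranges of the markers, and Lamc1, at 1657% and 2252%, and Lamb1, at 13016% and 12679%, lay far above them. With doublets removed, 3 of the 8 genes passed 0.5. Stromal cells that stayed unnamed on clustering the stroma alone (278 and 315) had a summed marker level of 4296 and 7790 CPM. That sum was 1227 and 2024 CPM in the Adamdec1 group and 1331 and 1944 CPM in the Pi16 group. The part of the unnamed cells in the fibroblast ratios was not tested.

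**Figure D4:**
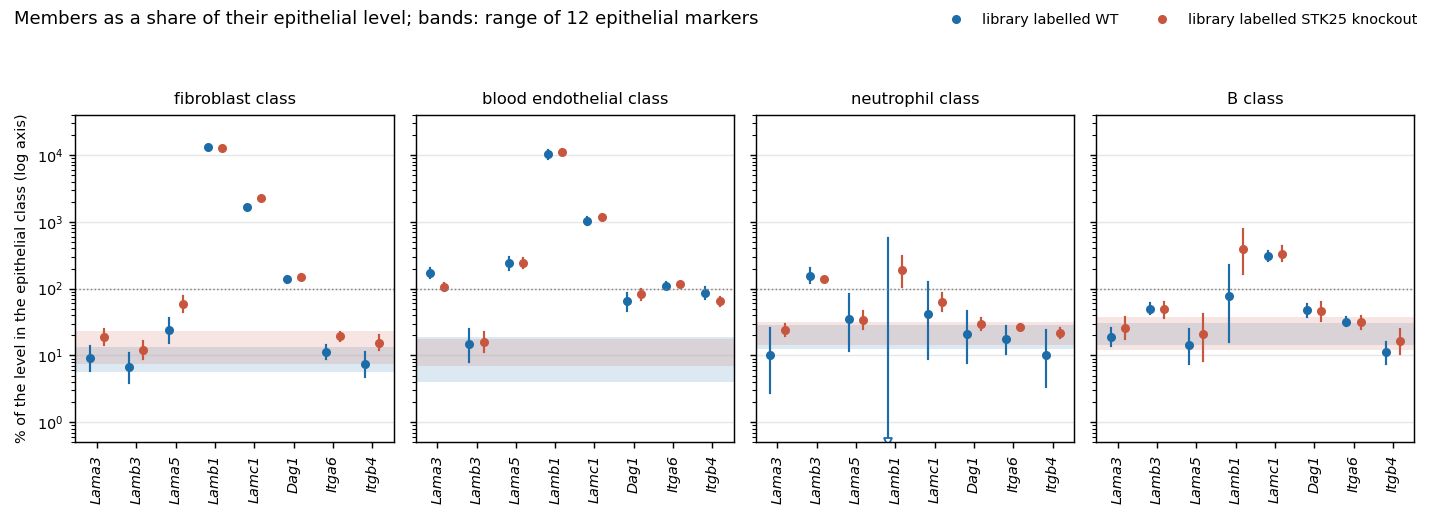
Level of each of the 8 genes in non-epithelial classes as a percentage of its level in the epithelial class (log axis), with 95% intervals. Bands in the colour of each library give the range of 12 epithelial marker genes in the same cells, and the dotted line marks 100%. In fibroblasts Lama3, Lamb3, Itga6 and Itgb4 fall inside the bands (up to 19.2%), whereas Lama5, Dag1, Lamc1 and Lamb1 lie above them.

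Among stromal groups, Lamb1 and Lamc1 followed fibroblast type. In mucosal-like fibroblasts marked by Adamdec1 (214 and 253 cells) Lamb1 was at 450 (404 to 501) and 422 (383 to 464) CPM and Lamc1 at 497 (448 to 549) and 584 (538 to 633) CPM. In adventitial-like fibroblasts marked by Pi16 (260 and 303 cells) Lamb1 was at 204 (175 to 237) and 223 (196 to 253) CPM and Lamc1 at 396 (355 to 440) and 381 (345 to 419) CPM. The intervals for Lamb1 were apart in both libraries. The highest Lamb1 level was in an Adamdec1 subcluster of 37 and 48 cells led by Mmp10 and Mmp13, at 952 (780 to 1152) and 636 (529 to 758) CPM, with Lamc1 at 584 (451 to 744) and 759 (642 to 892) CPM. Lama5 was likewise concentrated in the Adamdec1 group, at 22.4 (13.1 to 35.9) and 43.7 (31.8 to 58.7) CPM, against 2.36 and 4.64 CPM in the Pi16 group, from 2 and 5 UMIs. Dag1 differed little between fibroblast groups (153 and 153 CPM, 131 and 128 CPM). Its highest value was in glia, at 378 (244 to 558) and 295 (161 to 495) CPM from 27 and 25 cells. In the library labelled STK25 knockout the glia interval overlapped that of the Adamdec1 group, 130 to 179 CPM. Dystroglycan is known as a laminin receptor of peripheral glia.

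**Figure D5:**
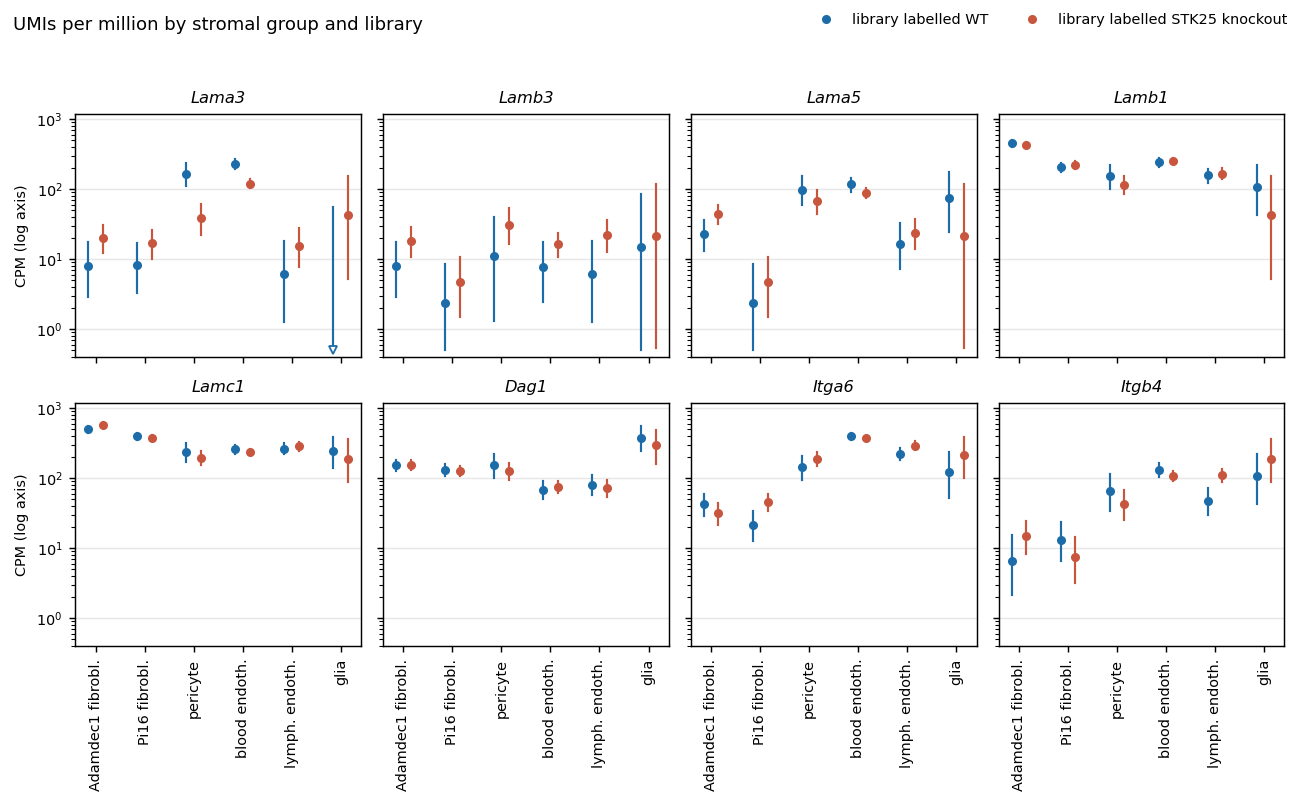
Level of the 8 genes (CPM, log axis) in stromal groups of each library, with 95% counting intervals; values under 0.5 CPM are drawn at 0.5 and groups under 25 cells in a library are left out. Lamb1 is at 450 and 422 CPM in Adamdec1 fibroblasts and at 204 and 223 CPM in Pi16 fibroblasts, and Lama3 is at 230 and 120 CPM in blood endothelium.

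Lama3 also differed between libraries in vascular cells. In the blood endothelial class Lama3 had a log2 ratio of −0.84 (−1.14 to −0.54) and was the only one of 7 members past 0.5, against 29.4% of 7002 genes in either direction. Endothelial subclusters differed in Lama3 and in their share of the libraries. In the subcluster led by Mecom and Sema3g (111 and 135 cells) it was at 360 (295 to 434) and 205 (160 to 259) CPM, in the one led by Rbp7 and Cd36 (44 and 190 cells) at 224 (156 to 312) and 165 (132 to 203) CPM, and in the one led by Selp and Sele (27 and 91 cells) at 55.4 (23.9 to 109) and 46.3 (30.8 to 66.9) CPM. Within these subclusters the log2 ratios were −0.81 (−1.27 to −0.37), −0.45 (−1.03 to 0.16) and −0.26 (−1.43 to 1.08). A further blood endothelial subcluster, led by Gpihbp1 and Muc2 (52 and 115 cells, median 1076 UMIs), is left out here. Itga6 and Itgb4 in the class were at −0.07 (−0.28 to 0.14) and −0.48 (−0.84 to −0.11).

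In the lymphatic endothelial class Itgb4 was the only one of 5 members past 0.5, at 47.3 (30.6 to 69.8) and 107 (85.6 to 133) CPM and a log2 ratio of 1.18 (0.52 to 1.89), against 19.6% of 5062 genes upwards. Itga6 there was at 214 (176 to 257) and 292 (256 to 333) CPM, and Lama3 at 5.67 and 13.9 CPM from 3 and 11 UMIs. Of the 12 epithelial markers 11 were also higher in the second library in this class, with none at 0 and a summed level of 1694 and 3501 CPM (log2 ratio 1.05), and their part in the Itgb4 ratio was not tested. Itgb4 stood at 28.6% and 68.1% of its epithelial level and Itga6 at 61.3% and 93.0%. These lay above the markers, which ranged from 5.50% to 14.3% and from 6.69% to 21.8% of theirs. Lama3, at 4.26% and 11.5%, did not lie above the markers, and the part of free epithelial RNA in its level was not tested. In the pericyte or smooth muscle class (90 and 163 cells), 1 of 6 members was higher (18% of 3159 genes) and 3 were lower (21.4%). Itga6 had a log2 ratio of 0.75 (0.16 to 1.37) and Lama3 one of −1.27 (−2.07 to −0.48), at 123 (83.7 to 175) and 51.2 (33.7 to 74.4) CPM from 31 and 27 UMIs. In the pericyte group of the library labelled WT (66 cells), 10 of 30 Lama3 UMIs came from 1 cell, which the counting interval does not cover. The other lower members were Lama5, at 111 (73.9 to 161) and 70.1 (49.4 to 96.6) CPM, and Lamb1, at 215 (161 to 280) and 135 (105 to 170) CPM. In this class too 11 of the 12 epithelial markers were higher in the second library, with none at 0 and a summed level of 1669 and 2988 CPM (log2 ratio 0.84). Itga6 stood at 35.4% and 65.7% of its epithelial level, against 6.89% to 13.7% and 5.63% to 21.5% for the markers, and their part in its ratio was not tested.

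Among immune cells, T or NK cells had Itga6, which pairs with β1 on lymphocytes, at 179 (169 to 190) and 108 (96.6 to 121) CPM and Lamc1 at 110 (102 to 119) and 169 (155 to 185) CPM, with 2 of 7 members higher (19.5% of 10838 genes) and 1 lower (21%). Different clusters held most of this class in the libraries. The cluster led by Lef1 and Themis held 2575 and 102 cells, the one led by Tnfrsf4 and Icos 1088 and 1017, the one led by Xcl1 and Nkg7 170 and 201 and the one led by Il17a and Trdv4 44 and 119, and the part of this make-up in the ratios was not tested. All 12 epithelial markers were higher in the second library in these cells (log2 ratio of the sum 0.52).

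Partners of the 8 genes were read from 6 lists. Of the other laminin chains, 1 of 4 was higher by at least 0.5 in the epithelial class (6.24% of all genes) and none was lower (16.3%), with Lama4 at 3.84 and 5.52 CPM. In fibroblasts 1 of 5 was lower (8.27% of all genes), Lama2 at 489 (458 to 522) and 314 (293 to 336) CPM, a log2 ratio of −0.64 (−0.78 to −0.50), while Lama4 was at 276 and 255 CPM. Lama2 and Lama4 encode the alpha chains that trimerise with β1 and γ1 in mesenchyme and vessels. Of 11 other basement membrane genes, 5 were higher (6.24% of all genes) and 1 lower (16.3%) in the epithelial class, with a median of 0.43 against −0.13 over all genes. Several of these were scarce there. Col4a1 was at 7.67 and 11.3 CPM in epithelial cells against 518 and 597 CPM in fibroblasts, and Fras1, a basement membrane protein of epithelia, was at 4.81 (3.95 to 5.80) and 14.7 (13.6 to 15.9) CPM, a log2 ratio of 1.62 (1.32 to 1.92). In fibroblasts 1 of 10 was higher (11.9% of all genes) and 1 lower (8.27%).

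Of 8 hemidesmosome and laminin receptor partners, 2 were lower by at least 0.5 in the epithelial class (16.3% of all genes) and none was higher (6.24%), so the share was near that of all genes. Dst, which encodes the BP230 plakin, was at 73.6 (70.1 to 77.2) and 47.8 (45.8 to 49.9) CPM, a log2 ratio of −0.62 (−0.71 to −0.53), and Itga3, whose product is also a laminin receptor subunit, had one of −0.53. Plec, the plakin that links integrin β4 to keratins, was at 318 and 271 CPM (−0.23, −0.27 to −0.19), and the tetraspanin gene Cd151 at 84.1 and 115 CPM (0.45, 0.37 to 0.53). In fibroblasts 2 of 6 were higher (11.9% of all genes), Cd151 (0.74, 0.42 to 1.06) and Bcam (1.09, 0.22 to 2.04, from 15 and 45 UMIs), in the barcodes where the epithelial markers were higher as well. The laminin receptor subunit Itgb1 was at 225 and 217 CPM in epithelial cells and at 428 and 441 CPM in fibroblasts.

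The dystrophin complex, through which dystroglycan acts, had 1 of 10 genes higher (6.24% of all genes) and 2 lower (16.3%) in the epithelial class, near the shares of all genes, with a median of −0.37 against −0.13. Utrn, the dystrophin homologue found widely outside muscle, was at 183 (177 to 188) and 140 (136 to 143) CPM, and the syntrophin gene Sntb1 at 32.8 (30.4 to 35.2) and 16.0 (14.9 to 17.2) CPM, a log2 ratio of −1.03 (−1.18 to −0.88). Sgcd had 5 and 66 UMIs in this class. In fibroblasts the ratios of all 10 were below 0, with a median of −0.30 against 0.02 over all genes, and 1 passed −0.5 (8.27% of all genes). Of 12 genes that glycosylate dystroglycan, 1 was lower (16.3% of all genes) and none higher (6.24%) in epithelial cells. Of 4 proteases of laminin or dystroglycan 1 was higher in each class, Mmp9 (6.24% of all genes in the epithelial and 11.9% in the fibroblast class). Mmp9 was at 1.01 and 2.08 CPM in epithelial cells and at 5.32 and 23.8 CPM in fibroblasts. It is also a marker gene of the neutrophil class, which held 220 and 1609 cells (1.79% and 11.6% of cells). The part of neutrophil RNA in these Mmp9 levels was not tested. Mmp14 was at 87.7 and 99.6 CPM in epithelial cells.

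Across 10 classes in both libraries (20 points, sharing library and depth), the genes most like each member by Pearson correlation of log levels, among 11349 candidates, were as follows. For Lama3 they were Mecom (0.94), Samd12 (0.93) and Kcnq1 (0.91), for Lamb3 Tuba4a (0.92), Mpzl3 and Txn1, and for Lama5 Fam171a1, Vcl and Syne2 (0.93, 0.93 and 0.92). Lamb1 was most like Ltbp4 (0.98), Mpdz and Tns2, and Lamc1 most like Sec62 (0.94), Polr3gl and Kremen1. Dag1 was most like Tnks1bp1, Tmem9 and Khdrbs3, Itga6 most like Tspan12 (0.91), Acer2 and Ccdc85c, and Itgb4 most like Ica1 (0.91), Tspan12 and Efna1. Tspan12 was thus named for both integrin subunits, which correlated with each other at 0.86 over classes. Lama3 and Lamb3, which correlated at 0.83 and 0.98 over epithelial subclusters, did so at 0.24 over classes.

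The remaining loci in GRCm38 are as follows. Lama5 (ENSMUSG00000015647) lies on chromosome 2 at 180176373 to 180225859, Lamb1 (ENSMUSG00000002900) on chromosome 12 at 31265234 to 31329644, Lamc1 (ENSMUSG00000026478) on chromosome 1 at 153218922 to 153332786 and Dag1 (ENSMUSG00000039952) on chromosome 9 at 108204634 to 108263958. Itga6 (ENSMUSG00000027111) lies on chromosome 2 at 71745616 to 71858416 and Itgb4 (ENSMUSG00000020758) on chromosome 11 at 115974709 to 116008412. Lamb3 is ENSMUSG00000026639. Lama3 (ENSMUSG00000024421) is on chromosome 18.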

How the data were processed

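The values deposited by the authors were raw UMI counts of 10x 3′ libraries, per the file headers from Cell Ranger 7.1.0 on mm10, and Seurat is named in the submitters' processing notes without a role. The sources used here do not say how introns and strand were counted. Barcodes under 200 genes or above 25% mitochondrial UMIs were removed, and the rest were scaled to 10000, log-transformed and clustered jointly without batch correction (2000 variable genes without the 8 members and the list genes, 30 components, 20 neighbours, Leiden resolution 1, subclusters 0.8, seed 0; Python 3.11.15, scanpy 1.11.5, leidenalg 0.10.2). A name needed 3 markers, each in at least 10% of cells and 5 points above the median cluster. Doublets were kept in the main values. UMIs were summed per group and library, with exact Poisson, Clopper-Pearson and conditional binomial intervals (95%). A ratio needed 50 UMIs over both libraries, and 0.5 on the log2 scale counted as a difference. With 1 library a group there was no test. Named genes were the members, Stk25, the most abundant list genes, list genes past 1, and each member's 3 most alike genes, and a few items that this rule names are left out. The members and lists were chosen with earlier results of these data known, and G0s2, Hsd11b1, Malat1 and other list genes were named after their values were seen. The ratios over all genes were tested on simulated data.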

Additional observations from a re-analysis of the deposited data

Results flagged for a closer look

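Some log2 ratios between the libraries had intervals on opposite sides of 0 in different cells; that these differ was not tested. Lama3 was at 0.91 in the fibroblast class, where its level lay within the ranges of the epithelial markers, and at −1.27 in pericytes or smooth muscle. The latter ratio rests on 31 and 27 UMIs, and in the pericyte group of the library labelled WT 10 of 30 UMIs came from 1 cell. Itga6 was at 0.75 in pericytes or smooth muscle and at −0.73 in T or NK cells. The T or NK class was made mostly of different clusters in the libraries (2575 and 102 cells in the largest, 1088 and 1017 in the next), and in pericytes or smooth muscle the 12 epithelial markers were also higher in sum (0.84). In epithelial subclusters Lama3 was at 0.65 in a stem-like subcluster of 171 and 382 cells and at −2.20 in a Cftr Htr4 Esrrg subcluster of 143 and 276 cells, where it rested on 43 and 24 UMIs. Lamb3 was at 0.65 in another stem-like subcluster of 256 and 346 cells and at −0.88 in a Cftr Htr4 Esrrg subcluster of 71 and 297 cells. Lama5 was at 0.65 in the shallower inflammatory-like subcluster and at −1.44 in the largest Cftr Htr4 Esrrg subcluster, with 44 and 11 UMIs in the latter.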

How the results depend on the processing

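In the epithelial class 0 members passed 0.5 under every alternative run, and 5 members stayed higher in epithelial than in fibroblast cells under each. In fibroblasts 5 passed, but 4 at resolution 0.5 and with the mean over cells, and 3 with doublets removed (1204 and 1542 cells, the automatic threshold having called 0). With subclusters weighted equally, chosen after seeing the data, members past 0.5 numbered 1 in the Cftr Htr4 Esrrg state, 2 in the absorptive-like and 1 in the inflammatory-like state. Over the 6 lists in both classes 23 calls were made, and 35 with no UMI minimum. Of 88 epithelial ratios of members under alternatives 15 moved beyond their interval, and of 72 in fibroblasts 2 did. Those of Lama3 in the epithelial class ran from −0.26 to 0.02 and of Lamb3 from −0.14 to 0.09. The mean over cells and the scaling to the median gene turned the sign of some near-0 epithelial ratios, with Itgb4 at 0.15 and 0.06 and Dag1 at 0.06 and 0.04. No unnamed cluster was nearest to the epithelial markers, so counting such clusters as epithelial gave no value. No paired analysis was possible because each group has 1 library. Depth limits Lamb1 in epithelial cells (50 and 100 UMIs) and all members in glia.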
